A study of Mus musculus with 3 samples.

Results

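The 38 presynaptic genes followed here encode the proteins with which a nerve terminal docks, primes, fuses and retrieves its synaptic vesicles. They were chosen by symbol, 38 of the 30559 genes counted, and all of them were found. The choice used no cut on a measured value but was made with earlier results of these data known. Their unique molecular identifiers (UMIs, 1 per captured RNA molecule) were summed in each library over nuclei holding at least 3 UMIs of the neuronal genes Rbfox3, Dcx, Gad2 and Dlx6os1 together (the gated nuclei) and over the remaining nuclei. The gate held 115 of 4884 nuclei in control cultures, 137 of 3017 in CBP-ablated cultures and 113 of 4648 in p300-ablated cultures.

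The nuclei came from neural stem cells of the subventricular zone of newborn mice, grown as neurospheres and differentiated for 15 days in vitro. The ablated cultures carried homozygous floxed alleles of Crebbp (labelled CBPf/f) or Ep300 (labelled p300f/f), the genes of the lysine acetyltransferases CBP and p300. Per the study's methods, recombination was by a lentivirus carrying Cre fused to mCherry, controls received a lentivirus carrying red fluorescent protein, and infected cells were sorted. The labels name tamoxifen as the treatment of every sample, controls included, and the floxed line of the control cultures was not stated in the sources used here. Each condition was 1 library of nuclei from a pool of about 15 cultures, so no test between conditions was possible. Intervals given are exact 95% Poisson, binomial or conditional binomial intervals and cover counting error only, not the spread between cultures.

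In a presynaptic terminal, the SNARE proteins Snap25, Stx1a and the Vamp proteins pull the vesicle onto the plasma membrane, Unc13 and Cadps proteins prime it, and Syt1 and the complexins time fusion to the entry of calcium. Rims, Rimbp2, Bsn, Pclo, Erc2 and Ppfia2 form the active zone that holds vesicles near calcium channels, synapsins tether the reserve pool, and dynamins, Amph and Synj1 retrieve the membrane after release. Oligodendrocyte progenitors and astrocytes are also known to transcribe several of these genes.

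The libraries held 12748336 to 18876682 UMIs, with a median of 3219 to 4016 UMIs per nucleus, and 1 to 7 nuclear barcodes were shared by any pair of libraries. Crebbp was at 335, 370 and 365 CPM (counts divided by the summed UMIs of the nuclei and scaled to 1000000) and Ep300 at 114, 136 and 115 CPM in the control, CBP-ablated and p300-ablated libraries. Neither gene was lower in the library labelled with its ablation. The study reports that CBP and p300 were removed in its differentiating cultures. Its antibody staining is reported to show no CBP in Cre-infected CBPf/f neurospheres. Per the study's methods, the recombined Crebbp allele still gives a truncated product, whereas no mature Ep300 messenger RNA is left. Reads over the floxed exons, and spliced apart from unspliced RNA, were not counted here, so recombination was not tested and the libraries are named by their labels throughout.

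The gate matched its name only in part. Of the gated nuclei, 75 of 115 in control (65.2%, interval 55.8 to 73.9), 114 of 137 in the CBP-ablated library (83.2%, 75.9 to 89.0) and 65 of 113 in the p300-ablated library (57.5%, 47.9 to 66.8) fell in the neuron-like cluster, which met 9 of its 9 markers. Of the others, 18, 3 and 32 nuclei were NPC/OPC-like, a mixed class of neuronal and oligodendrocyte progenitors. In the CBP-ablated library more of the others, 10 nuclei, lay in an unnamed cluster led by Gpr149 and Syt1, and 5 were oligodendrocyte-like. The gated nuclei held a median of 9, 5 and 10 UMIs of 7 NPC/OPC markers, and 0 UMIs of the 5 microglia markers in all 3 libraries. Doublet calls covered 12, 5 and 6 gated nuclei. Because the makeup of the gate differed between libraries, values from its neuron-like part are given beside those of the whole gate. The gated nuclei made up 2.35%, 4.54% and 2.43% of the libraries. Of them, 45, 38 and 45 had exactly 3 UMIs of the gate genes, and after every nucleus was thinned to 1500 UMIs the shares were 0.798%, 2.05% and 0.753%.

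Summed over the 38 genes, the gated nuclei held 7953 CPM in control (interval 7692 to 8220), 8471 CPM in the CBP-ablated library (8226 to 8722) and 8372 CPM in the p300-ablated library (8114 to 8636), against 3921, 4341 and 4946 CPM in all other nuclei. The neuron-like part of the gate held more, at 9107, 9382 and 10471 CPM, and the rest of the gate 6406, 5015 and 6205 CPM. Even so, the gated nuclei contributed only 5.35%, 7.84% and 4.20% of the UMIs of these genes in their libraries. The gate held 2.35%, 4.54% and 2.43% of the nuclei, so most UMIs of the summed set lay outside it although its level was higher. This holds for the sum and not for every gene. Slc32a1 gave 7, 6 and 6 UMIs in gated nuclei and 0, 1 and 0 in all others.

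Of the nuclei outside the gate, the neuron-like ones held the most, 7897 CPM in control (7174 to 8674), 8521 with CBP ablation (8102 to 8956) and 8576 with p300 ablation (7968 to 9218), on 26, 57 and 22 nuclei. These levels lay within counting error of those of the gated nuclei. The NPC/OPC-like nuclei outside the gate held 6573, 6549 and 6762 CPM of the 38 genes, in the order control, CBP-ablated and p300-ablated, which is used below. High sums were also read in proliferating-like nuclei at 6220, 5807 and 6464 CPM, in an unnamed cluster led by Gpr149 and Syt1 at 5950, 6437 and 5974 CPM, and in nuclei led by Kcnj6 and Nell2 at 5698, 4928 and 5968 CPM. An unnamed cluster led by Ogn and Cep19 held 4192, 4386 and 4396 CPM and another led by Cdkn1a and Eva1c 2667, 2734 and 3384 CPM. Committed oligodendrocyte precursor-like nuclei held 5539, 5206 and 5462 CPM and oligodendrocyte-like nuclei 3731, 3476 and 3592 CPM. Glial progenitor-like nuclei held 2580, 2603 and 2593 CPM, and RGC/PSC-like nuclei (a mix of radial glial and stem cell signatures) 2041, 2227 and 2170 CPM. Astrocyte-like nuclei, found in the control library alone, held 1574 CPM. Microglia-like nuclei, used below as a reference for free RNA, held 1056, 1881 and 2044 CPM. Some members, such as Unc13b, are also found outside the nervous system, so these sums need not be free RNA alone. The clusters were made with all variable genes, the 38 included, so their order is a description.

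**Figure D1:**
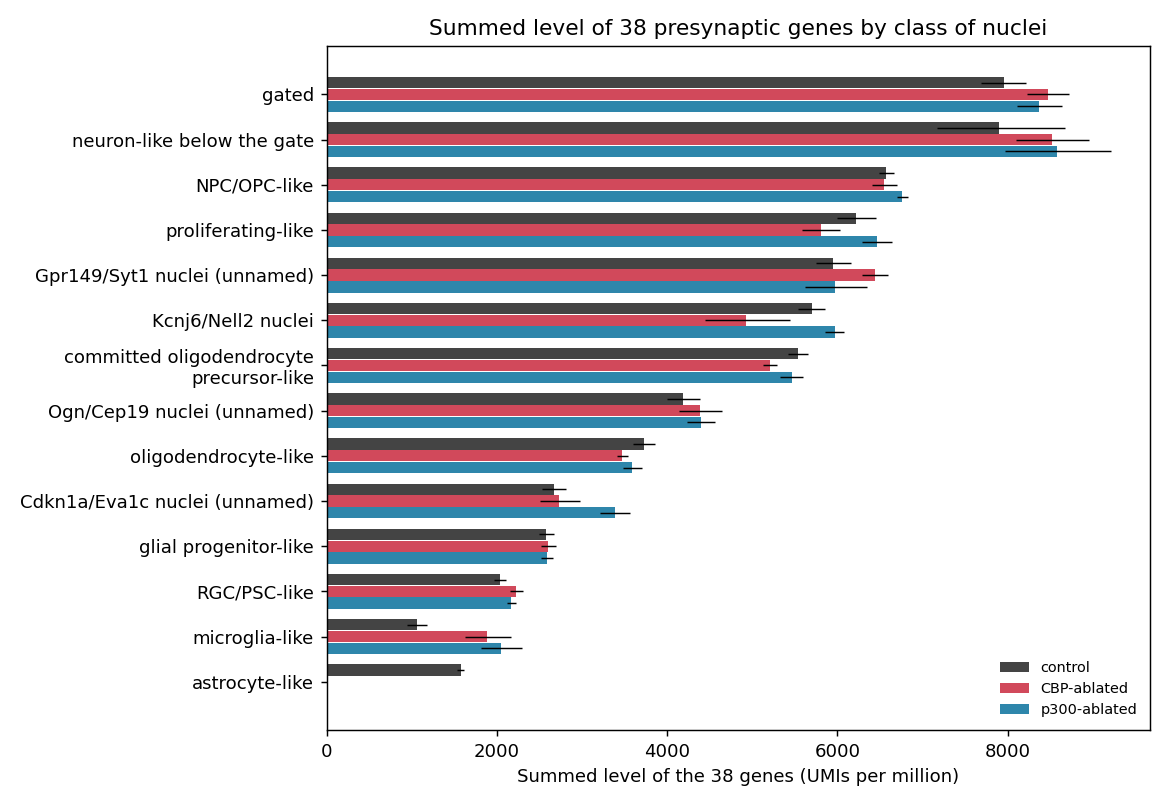
Summed CPM of the 38 presynaptic genes (x axis, from 0) in the gated nuclei and in 13 classes of nuclei outside the gate (y axis), with 1 bar per library and exact 95% Poisson intervals as error bars. The gated nuclei, at 7953 to 8471 CPM, and the neuron-like nuclei below the gate, at 7897 to 8576 CPM, stand highest, NPC/OPC-like nuclei follow at 6549 to 6762 CPM, and microglia-like and astrocyte-like nuclei, the latter in control alone, are lowest.

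The 5 genes with the highest CPM in gated control nuclei were Dnm3, Cadps, Ppfia2, Syn3 and Erc2, all long genes whose introns were counted. Dnm3, a dynamin that cuts vesicles from the membrane, was at 1166, 717 and 901 CPM. Cadps, which primes dense-core and synaptic vesicles, was at 1043, 1316 and 1117 CPM. Ppfia2, a liprin of the active zone, was at 751, 933 and 838 CPM, Syn3, a synapsin, at 677, 869 and 853 CPM, and Erc2, an active zone scaffold, at 552, 813 and 662 CPM. Over the whole gate, each of the 5 except Dnm3 was lowest in the control library and highest in the CBP-ablated library. Syn3 there lay within its counting error of the p300-ablated value. Over the whole neuron-like cluster, gated or not, Erc2 kept this order, at 603, 812 and 772 CPM. The other 3 did not: Ppfia2 was at 1125, 1060 and 1144 CPM, Cadps at 1417, 1489 and 1626 CPM and Syn3 at 931, 1010 and 1404 CPM. Cadps was found in 105 of the 115 gated control nuclei, whereas the 182 Syt1 UMIs came from 34 nuclei.

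After thinning each nucleus to 1500 UMIs, Cadps was detected in 72.8%, 73.5% and 75.7% of gated nuclei and Dnm3 in 65.8%, 52.9% and 62.2%. Without thinning the shares were 91.3%, 87.6% and 92.0% for Cadps and 79.1%, 78.1% and 84.1% for Dnm3. Thinned microglia-like nuclei, the reference for free RNA, gave 3.12%, 9.09% and 13.3% for Cadps and 10.9%, 22.7% and 16.7% for Dnm3, on 64, 22 and 30 nuclei of at least 1500 UMIs. Their median depths before thinning were 1134, 1010 and 1664 UMIs, against 3358, 3514 and 4151 UMIs in the gated nuclei. For both genes the gated shares lay above the upper bound of the microglia-like interval, which reached 45.4% at most, in each of the 3 libraries.

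Divided by the length of the gene, the order changed. This scaling raises short genes against long ones, and whether it makes genes comparable was not tested. Slc32a1, the vesicular GABA transporter, stood at 318, 226 and 253 CPM per 100 kb of gene span. Snap25, a SNARE of the target membrane, was at 312, 454 and 368 CPM per 100 kb, and Syn2, a synapsin, at 315, 223 and 326 CPM per 100 kb. Dnm3, at 235, 145 and 182 CPM per 100 kb, came next in control but ranked 12 and 8 in the CBP-ablated and p300-ablated libraries. In the CBP-ablated library, Sv2a at 300 CPM per 100 kb, on 23 UMIs, and Cadps at 292 stood above Slc32a1 and Syn2. Slc32a1, Syn2 and Snap25 in control lie within their counting errors of each other, since Slc32a1 rests on 7 UMIs.

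The vesicular transmitter transporters were unequal. Slc32a1 gave 7, 6 and 6 UMIs in gated nuclei and 0, 1 and 0 UMIs in all other nuclei. Against a floor of 3 UMIs over the other nuclei, its gated level was 83.8-fold higher in control and 77.3-fold higher in the p300-ablated library. These folds leave out the counting error of the gated levels, 15.8 CPM (6.37 to 32.6) and 12.6 CPM (4.62 to 27.4). In the CBP-ablated library Slc32a1 had a log2 ratio of 7.10 (4.06 to 12.6). All 7, 7 and 6 UMIs of Slc32a1 in the libraries lay in the neuron-like cluster. Slc17a6 and Slc17a7, which load glutamate into vesicles, gave 0 UMIs in the gated nuclei of every library, which by the floor of 3 UMIs allows up to 6.79, 5.63 and 6.30 CPM. Gad2 is a gate gene and its product makes GABA, so the gate itself favoured GABAergic nuclei. Over whole libraries Slc17a6 gave 0, 2 and 0 UMIs and Slc17a7 1, 1 and 4.

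**Figure D2:**
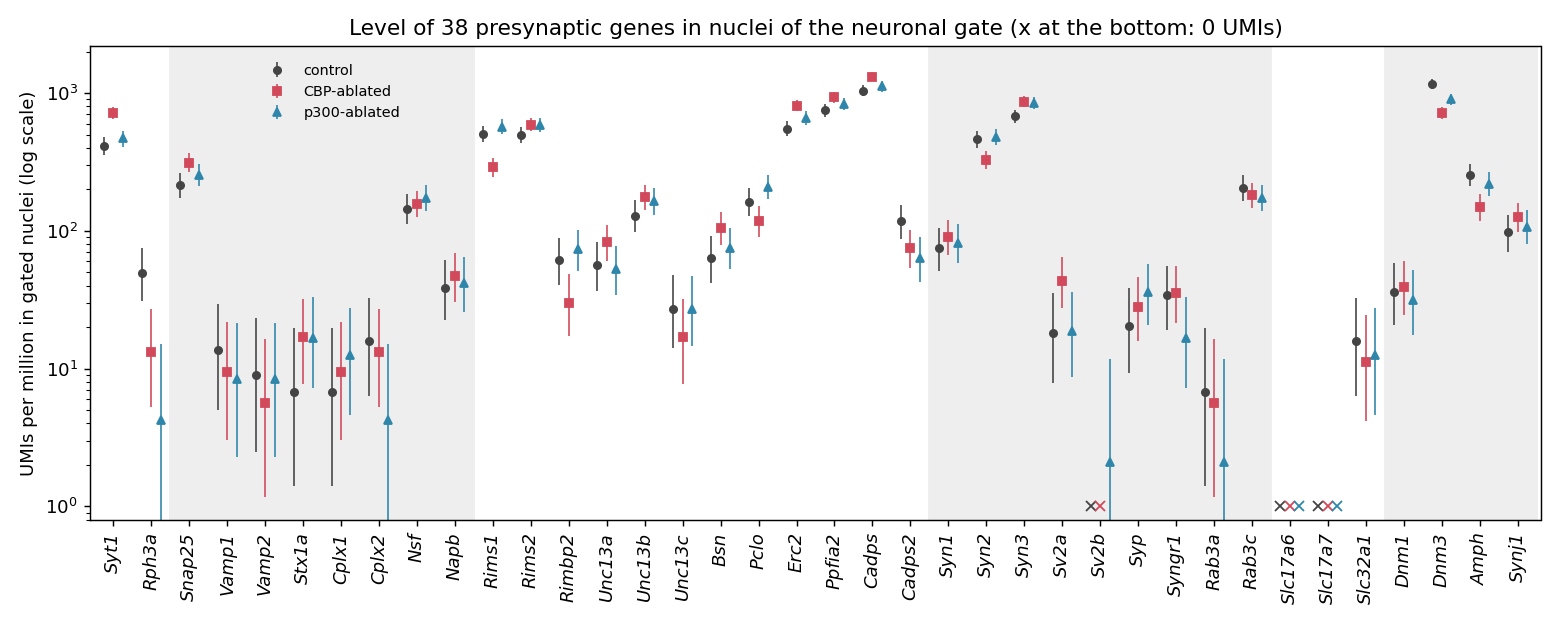
CPM of each of the 38 genes (x axis, grouped by role) in gated nuclei on a log10 y axis, with 1 point per library, exact 95% Poisson bars and crosses for genes with 0 UMIs. Dnm3, Cadps, Ppfia2, Syn3 and Erc2 lie highest, at 552 CPM or above, Slc17a6 and Slc17a7 had 0 UMIs, and some lower bars are cut by the axis, which does not start at 0.

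The next comparison asked which of these genes were more abundant in gated nuclei than elsewhere in the same culture. Of the genes with at least 50 UMIs in the 2 sets together, 19 of 33 were at least 1.5-fold higher in gated nuclei in control, 18 of 32 in the CBP-ablated library and 14 of 33 in the p300-ablated library, against 13.8%, 14.1% and 12.5% of all genes measured the same way. In the other direction, 2, 2 and 4 of them were at least 1.5-fold lower, against 33.6%, 32.5% and 34.0% of all genes. The minimum of 50 UMIs covered both sets together, and the gate held only 2.35%, 4.54% and 2.43% of the nuclei. A gene near the minimum could thus hold few gated UMIs and fall past 1.5-fold by counting error alone. Stx1a, counted as lower in control, had 3 gated UMIs. The part of counting error in these counts and shares was not tested, so they are not read as depletion. The median log2 ratio was 0.72, 0.75 and 0.31 for the presynaptic genes and -0.21, -0.22 and -0.24 for all genes. In the neuron-like part of the gate the control median was 1.15. Since the other nuclei differ in makeup between libraries, the ratios compare gated nuclei with a different mixture in each.

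The calcium sensor Syt1 was at 412 CPM in gated and 18.8 CPM in other control nuclei, at 717 and 75.1 CPM in the CBP-ablated library, and at 468 and 24.8 CPM in the p300-ablated library, giving log2 ratios of 4.45 (4.18 to 4.72), 3.26 (3.08 to 3.43) and 4.24 (4.00 to 4.47). Its SNARE partner Snap25 was at 215 against 32.1 CPM, 313 against 19.0 CPM and 254 against 54.5 CPM, with log2 ratios of 2.74, 4.05 and 2.22. Both genes were several-fold higher in gated nuclei in each library. Ppfia2 had log2 ratios of 2.49, 3.07 and 1.90, Rab3c, a vesicle GTPase, 2.31, 2.51 and 1.67, and Syn3 2.28, 2.18 and 2.03.

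Priming and active zone genes were split. Unc13a, the main priming factor of many synapses, had log2 ratios of 1.67, 2.76 and 1.35, Bsn 1.63, 2.29 and 1.44, and Cadps 1.39, 1.70 and 1.08. Pclo, a scaffold related to Bsn, was not higher in gated nuclei, with log2 ratios of -0.23, -0.51 and -0.15. The Rims genes lay between, Rims1 at 0.71, 0.23 and 0.34 and Rims2 at 0.50, 0.70 and 0.45. Bsn and Pclo act at the same site, and in each library the interval of Bsn lay wholly above that of Pclo.

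Some other genes of the set were near even. Nsf, the ATPase that takes spent SNARE complexes apart, had log2 ratios of 0.23, 0.16 and 0.25, Synj1, a lipid phosphatase of endocytosis, 0.08, 0.27 and -0.09, and Napb 0.29, 0.38 and 0.31. Stx1a, a SNARE of the plasma membrane, was lower in gated nuclei in control at -1.63 (-3.92 to -0.07), on 3 UMIs in the gate. It was within 1.5-fold in the CBP-ablated library, at 16.9 against 25.2 CPM, and in the p300-ablated library, at 16.8 against 23.9 CPM. Vamp1 and Vamp2, short genes of the vesicle SNARE, had 3 to 6 UMIs each in the gated nuclei of any library, so a difference was not detectable at this depth. Dnm3 changed sides, at 0.38, -0.91 and -0.16, and its level in other nuclei was 898, 1348 and 1007 CPM.

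The gene families around this set were measured in the same way. Of 17 listed paralogs with general roles, such as Snap23, Dnm2 and Erc1, 16 were found. Of those with enough UMIs, 0 of 10, 0 of 11 and 0 of 11 were at least 1.5-fold higher in gated nuclei, and 4, 4 and 3 were lower. Among all genes 13.8%, 14.1% and 12.5% were higher. The paralog medians were -0.37, -0.09 and -0.35, against -0.21, -0.22 and -0.24 for all genes. With so few paralogs, 0 is near the share of all genes and is not read as a difference from it. Of 50 other presynaptic and exocytosis genes, 15 of 39, 14 of 37 and 13 of 39 were higher, with medians of 0.32, 0.28 and 0.17. Of 12 neuronal genes used in neither the gate nor the set, 7 of 8, 10 of 10 and 8 of 8 were higher, with medians of 2.65, 4.22 and 2.78. Of these, Dlx1 and Sp9 passed in the CBP-ablated library alone, on 37 and 35 gated and 19 and 22 other UMIs. They reached the minimum mostly through the gated nuclei, so the count and median of that library cannot be set against the others. By median, the presynaptic set lay between the neuronal genes and the general paralogs in each library.

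**Figure D3:**
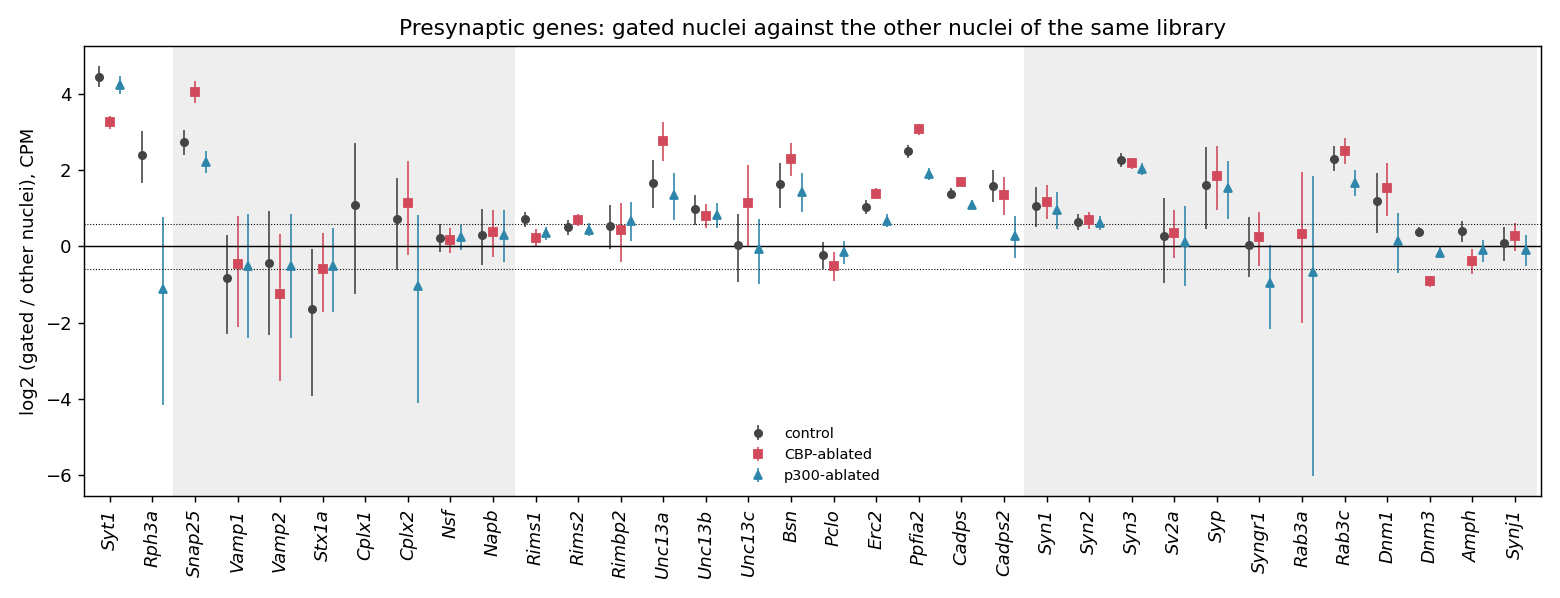
Log2 ratio of CPM in gated against other nuclei of the same library for each presynaptic gene with at least 50 UMIs, with 1 colour per library and conditional binomial 95% bars, and dotted lines at 1.5-fold. Syt1, Snap25, Ppfia2 and Syn3 lie near 2 or above in each library, and Pclo, Nsf and Synj1 lie near 0.

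CBP ablation was then compared with control within the gated nuclei. Of the 38 genes, 20 had at least 50 UMIs in the 2 libraries together. Of these, 2 were at least 1.5-fold higher, Syt1 and Bsn, and 4 at least 1.5-fold lower, Rims1, Amph, Dnm3 and Cadps2, against 11.0% and 10.4% of the 3340 genes measured the same way. The count of higher genes, 2 of 20, is near its background and that of lower genes, 4 of 20, lies above it, with no test between 1 library and another. The median log2 ratio was 0.29 for the presynaptic genes and 0.07 for all genes.

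Syt1 was at 412 CPM (182 UMIs) in control and 717 CPM (382 UMIs) in the CBP-ablated library, a log2 ratio of 0.80 (0.54 to 1.06). In the neuron-like part of the gate the ratio was 0.31 (0.03 to 0.58), under 1.5-fold. The UMIs came from 34 control and 66 CBP-ablated nuclei, and the 10 richest nuclei of each held 65.4% and 52.9% of them. Of the gated Syt1 UMIs, 167 and 344 lay in neuron-like nuclei, 15 and 0 in NPC/OPC-like nuclei, and 0 and 33 in the cluster led by Gpr149 and Syt1. A lower ratio was also read from gates of at least 5 UMIs (0.15) and without Dcx (0.20), and after thinning it was -0.011. Without called doublets it was 0.54, which is under 1.5-fold.

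Rims1, which links vesicles to calcium channels, was at 507 CPM (224 UMIs) in control and 289 CPM (154 UMIs) in the CBP-ablated library, a log2 ratio of -0.81 (-1.12 to -0.51). In the p300-ablated library it was at 571 CPM. The ratio stayed below 0 in the neuron-like part of the gate, at -0.77 (-1.15 to -0.40), and NPC/OPC-like nuclei gave 70 and 8 of the gated Rims1 UMIs in control and the CBP-ablated library. The neuron-like nuclei below the gate went the other way, at 343 CPM in control and 583 CPM with CBP ablation, on 19 and 106 UMIs, a log2 ratio of 0.76 (0.05 to 1.55). Over the whole neuron-like cluster, gated or not, it was -0.30, so the direction of Rims1 depended on which neuron-like nuclei were taken. Amph, an adaptor of endocytosis, was at 256, 148 and 221 CPM, with a log2 ratio of -0.79 (-1.22 to -0.36) in the CBP-ablated library. In the neuron-like part it was -0.71. With a gate of at least 5 UMIs it was -0.013, without Dcx -0.53 and after thinning 0.081.

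Cadps2, the paralog of Cadps, was at 118, 75.1 and 63.0 CPM, on 52, 40 and 30 UMIs. Its log2 ratio was -0.65 (-1.28 to -0.03) in the CBP-ablated library. Its level in the neuron-like part was 166 CPM in control and 83.0 CPM with CBP ablation, with an interval of the log2 ratio from -1.69 to -0.32. These UMIs came from 14, 14 and 13 nuclei, and the 10 richest held 48 of 52, 36 of 40 and 27 of 30 of them, so few nuclei carry the value. Dnm3 had a log2 ratio of -0.70 (-0.90 to -0.51) over the gate and -0.27 (-0.55 to 0.01) in the neuron-like part, and with a gate of at least 2 UMIs it was -0.46 and that of Cadps2 -0.38. In control, 136 of its 515 gated UMIs lay in 4 committed oligodendrocyte precursor-like nuclei and 75 in a single nucleus. Bsn was at 63.4, 105 and 75.6 CPM, on 28, 56 and 36 UMIs, with a log2 ratio of 0.73 (0.05 to 1.44) in the CBP-ablated library, 0.50 in the neuron-like part and -0.040 with a gate of at least 5 UMIs. Without called doublets the Bsn ratio was 0.57 and with a gate of at least 2 UMIs 0.58, both under 1.5-fold.

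The other 14 genes with enough UMIs were within 1.5-fold. Erc2 had a log2 ratio of 0.56 (0.33 to 0.79), Unc13a 0.55 (-0.19 to 1.31), Snap25 0.54 (0.17 to 0.92), Syn3 0.36 (0.15 to 0.58), Cadps 0.33 (0.16 to 0.51) and Syn2 -0.50 (-0.80 to -0.20). These are ratios over the whole gate, the makeup of which differed between the libraries. Over the whole neuron-like cluster, gated or not, the Syn3 and Cadps levels given above rose less from control to the CBP-ablated library. The part of gate makeup in these ratios was not tested. Within the neuron-like part of the gate, 20 genes passed, 2 were higher and 3 lower past 1.5-fold, against 9.26% and 8.14% of all genes. The 2 higher there were Nsf at 0.67 (0.04 to 1.34) and Synj1 at 0.64 (-0.13 to 1.46), and the median was 0.17. Below the UMI minimum, Sv2a gave 8, 23 and 9 UMIs, Rimbp2 27, 16 and 35, and Rph3a 22, 7 and 2.

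The p300-ablated library was closer to control over the gated nuclei. Of 21 genes with enough UMIs, 0 were at least 1.5-fold higher and 1 was lower, Cadps2 at -0.90 (-1.60 to -0.23), against 6.99% and 7.99% of the 3104 genes measured the same way. The median log2 ratio was 0.17 for the presynaptic genes and -0.01 for all genes. Dnm3 was at -0.37 (-0.56 to -0.18), Syn3 at 0.33 (0.11 to 0.55), Erc2 at 0.26 (0.02 to 0.51), Syt1 at 0.19 (-0.10 to 0.48) and Rims1 at 0.17 (-0.09 to 0.43). In the neuron-like part, 18 genes passed, with Nsf at 0.85 (0.16 to 1.56), Synj1 at 0.65 (-0.21 to 1.54) and Cadps2 at -1.16 (-2.04 to -0.33) past 1.5-fold, against 11.2% higher and 10.3% lower among all genes. Both contrasts use the same control library, so a gene that happened to be high or low there moves in both.

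**Figure D4:**
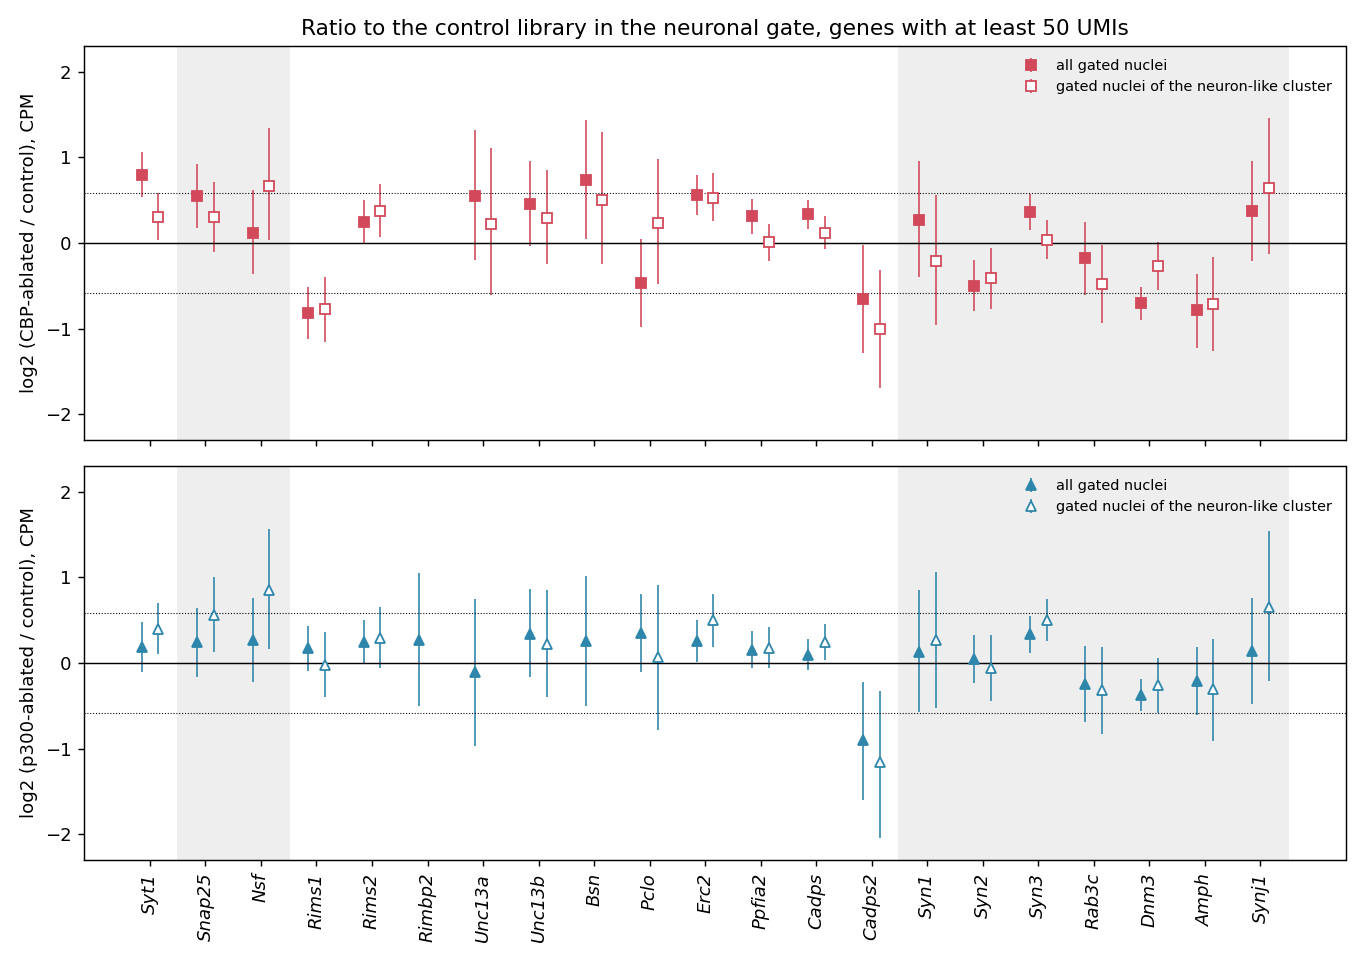
Log2 ratio of CPM to control (y axis) for each presynaptic gene with at least 50 UMIs in the pair of libraries (x axis, shaded by role), CBP-ablated in the upper and p300-ablated in the lower panel. Filled points are all gated nuclei, open points the neuron-like part of the gate, bars conditional binomial 95% intervals and dotted lines 1.5-fold. Of the filled points, Syt1 and Bsn lie above the upper line and Rims1, Amph, Dnm3 and Cadps2 below the lower line in the CBP-ablated panel, and Cadps2 alone lies outside the lines in the p300-ablated panel.

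Other genes of the release pathway were measured in the same nuclei. Of 50, 22 passed in the CBP contrast, 3 were higher past 1.5-fold and 0 lower, with a median of 0.27. Those higher included the calcium channel Cacna1e (439 CPM in control and 719 CPM with CBP ablation, 0.71) and Syt14 (81.5 and 133 CPM, 0.71). Bin1 and Ppfia1, at -0.34 each, were among the smallest ratios. In the p300 contrast 21 passed, 0 were past 1.5-fold in either direction, and the median was 0.02, with Cacna1e at 0.50 and Stxbp5 at 0.43 among the highest and Bin1 at -0.58, Scamp5 at -0.54 and Synpr at -0.53 lowest.

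Among the general paralogs, Dnm2 was at 115, 201 and 130 CPM, a log2 ratio of 0.80 (0.30 to 1.31) in the CBP-ablated library. Dnm3 differed from Dnm2 in direction there over the gate, at -0.70. Over the whole neuron-like cluster, gated or not, Dnm3 was at -0.18 (-0.42 to 0.07). In control, Dnm3 was at 707 CPM over that cluster and at 1442 CPM in NPC/OPC-like nuclei. Erc1 had log2 ratios of 0.10 and 0.26 in the CBP-ablated and p300-ablated libraries. Snap23 gave 24, 26 and 10 UMIs and Napa 9, 8 and 7 UMIs, Vamp3 gave 0 UMIs in each library, and Stx4 was not found among the gene symbols.

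In the neuron-like nuclei below the gate, 11 genes passed in the CBP contrast. Syt1, at 1.39 (0.44 to 2.498, on 86 and 10 UMIs), and Rims1 were higher and 0 lower past 1.5-fold, against 16.3% and 11.5% of all genes. Syt1 reached the minimum mostly through its CBP-ablated UMIs, so its place in this count is not a result. Snap25 was at -0.33, Ppfia2 at -0.35 and Cadps at -0.05 there. In the p300 contrast 9 passed, with Syn3 at 1.06 (0.52 to 1.62), Rims1 at 0.95 (0.18 to 1.78), Syn2 at 0.67 (-0.17 to 1.58) and Rims2 at 0.59 (-0.13 to 1.34) higher and 0 lower, against 14.4% and 11.7%. Syt1 gave 2 p300-ablated against 10 control UMIs there, under the minimum, at -2.96 (-6.19 to -0.73). The control side of both contrasts rests on 26 nuclei.

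Outside the gate and the neuron-like cluster, ratios between conditions were read within each class, so that shifts between the classes named here do not enter them. Shifts in makeup within a class can enter them. In NPC/OPC-like nuclei, 28 genes passed in the CBP contrast, 1 was higher and 4 lower past 1.5-fold, against 6.29% and 5.49% of all genes. Syt1 was the one higher, at 36.1 CPM in control and 56.9 CPM in the CBP-ablated library (0.66, 0.21 to 1.10). Unc13c, a priming factor related to Unc13a, was at 56.6 and 12.6 CPM (-2.17, -3.04 to -1.41). At a clustering resolution of 1.2, this class was split, and Unc13c was a leading gene of one NPC/OPC-like cluster. That cluster held 383 control and 45 CBP-ablated nuclei, gated or not, and the other held 609 and 266. The part of this shift in the Unc13c ratio was not tested. Rph3a, a Rab3 effector, was at 30.7 and 13.4 CPM (-1.20), Snap25 at 81.7 and 42.7 CPM (-0.94, -1.40 to -0.50) and Unc13a at 32.2 and 17.6 CPM (-0.87). Syt1 and Snap25, partners in fusion, thus lay on opposite sides of control in this class, while over the whole gate both were above it. For Snap25 this did not hold in all neuron-like nuclei. It was at 0.15 (-0.20 to 0.51) over the whole neuron-like cluster and at -0.33 (-1.08 to 0.47) in its nuclei below the gate. In the p300 contrast 32 genes passed, with Syp at 0.66 and Dnm1 at 0.60 higher and Vamp1 at -0.63 and Rph3a at -0.59 lower, against 3.59% and 4.04%.

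Syt1 was higher in several classes of the CBP-ablated library. Besides the neuron-like nuclei below the gate, it was above 0 in each of the 5 classes with enough UMIs, at log2 ratios from 0.66 to 2.75. One of them is the cluster that Syt1 itself helps to define, at 76.8 and 375 CPM, and its ratio there is not a result. Neuron-like nuclei below the gate, oligodendrocyte-like nuclei and the Ogn/Cep19 cluster reached the minimum mostly through their CBP-ablated UMIs, so the count of classes is not a result either. Classes under the minimum went both ways. Kcnj6/Nell2 nuclei were at -0.55, on 16 control and 1 CBP-ablated UMIs, and proliferating-like nuclei at 1.03, on 15 and 30. In committed oligodendrocyte precursor-like nuclei Syt1 was at 21.4 and 61.6 CPM (1.52, 0.99 to 2.09), and in oligodendrocyte-like nuclei at 7.11 and 20.9 CPM, on 6 and 61 UMIs (1.56, 0.35 to 3.06). The unnamed cluster led by Ogn and Cep19 was at 23.1 and 156 CPM, on 10 and 43 UMIs (2.75). In the p300-ablated library the 3 classes with enough UMIs lay between 0.14 and 1.34.

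Classes not known for Syt1 gave a reference for free RNA. Microglia-like nuclei gave 1, 2 and 0 Syt1 UMIs, or 3.51, 19.3 and 0 CPM, and RGC/PSC-like nuclei were at 6.19, 16.7 and 6.85 CPM. Over the whole library Syt1 was at 29.5, 102 and 36.0 CPM, and the Gpr149/Syt1 cluster held 8.94%, 33.3% and 5.00% of its UMIs. With 5% of each class's UMIs subtracted in the proportions of the library, the sign of the Syt1 ratio was kept in the classes tested. A subtraction of this size could hardly turn these signs, so their being kept decides nothing about free RNA. RGC/PSC-like nuclei, a reference here, themselves had a Syt1 log2 ratio of 1.44 (0.34 to 2.65) with CBP ablation, on 10 control and 26 CBP-ablated UMIs. The part of free RNA in these values was not tested further.

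Snap25 in the CBP-ablated library was below 0 in each of the 4 other classes with enough UMIs, from -1.45 to -0.32. The library's Snap25 UMIs lay to 16.4%, 53.9% and 12.4% in the neuron-like cluster and to 46.8%, 12.8% and 61.8% in NPC/OPC-like nuclei. Outside the neuron-like cluster, Cadps was below 0 in all 10 classes with enough UMIs, from -0.83 to -0.07, and Cadps2 in all 7, from -2.22 to -0.21. The lowest Cadps2 value, in Kcnj6/Nell2 nuclei, rests on 1 UMI in the 20 CBP-ablated nuclei of that class against 51 UMIs in control. For Cadps the gated nuclei lay on the other side of control, at 0.33. This held for the whole gate and not for all neuron-like nuclei. In neuron-like nuclei below the gate Cadps was slightly below 0. Over the whole neuron-like cluster, gated or not, it lay nearer to control than in the gate. In the p300-ablated library Ppfia2 was above 0 in all 10 of these classes, from 0.07 to 0.59. It was at -0.53 (-1.04 to -0.013) in neuron-like nuclei below the gate, on 69 and 64 UMIs. Some of these ratios lay within counting error, such as CBP-ablated Cadps in oligodendrocyte-like nuclei (-0.13, -0.28 to 0.03) and p300-ablated Ppfia2 in Kcnj6/Nell2 nuclei (0.07, -0.15 to 0.29). All classes come from the same libraries, and how many of all genes keep the same sign across them was not counted. The counts of classes for Snap25, Cadps, Cadps2 and Ppfia2 are thus not results.

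The largest difference within a class was that of Rimbp2, which ties Rims to calcium channels at the active zone. In glial progenitor-like nuclei it was at 93.9 CPM (126 UMIs) in control, 12.9 CPM (18 UMIs) in the CBP-ablated library and 32.9 CPM (65 UMIs) in the p300-ablated library. The log2 ratios were -2.86 (-3.66 to -2.14) and -1.51 (-1.97 to -1.07). In RGC/PSC-like nuclei it was at 28.5, 7.08 and 14.6 CPM, with log2 ratios of -2.01 (-3.11 to -1.04) and -0.96 (-1.58 to -0.34). In NPC/OPC-like nuclei, by contrast, Rimbp2 was at 72.4, 62.8 and 80.2 CPM. Astrocyte-like nuclei, in the control library alone, held 24.5 CPM, less than the control glial progenitor-like nuclei. At a finer clustering, without doublets and with free RNA subtracted, the ratio in CBP-ablated glial progenitor-like nuclei ran from -2.96 to -2.83.

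In the same glial progenitor-like nuclei, 20 genes passed in the CBP contrast, 4 were higher and 2 lower past 1.5-fold, against 8.64% and 6.13% of all genes. Syn1, the synapsin of the X chromosome, was at 8.94 and 28.0 CPM (1.65, 0.68 to 2.71). It reached the minimum mostly through its CBP-ablated UMIs, 39 against 12 in control, so its place among the 4 higher is not a result. The others higher were Ppfia2 at 32.0 and 58.1 CPM (0.86), Syn3 at 65.6 and 117 CPM (0.84) and Dnm3 at 186 and 304 CPM (0.71). Vamp2 was lower at -0.66 (-1.49 to 0.14). In the p300 contrast 21 passed, with Syn1 at 1.11 and Ppfia2 at 0.59 higher and Rimbp2 lower, against 7.96% and 3.72%. Syn1 and Rimbp2 thus lay on opposite sides of control in both ablated libraries, each of which was set against the same control nuclei. For Syn1 both ratios rest on the same 12 control UMIs, so this contrast is not read as a result. In RGC/PSC-like nuclei 19 genes passed in the CBP contrast, with Syn3 higher (0.68) and Rimbp2 and Cadps (-0.83) lower, against 6.38% and 6.04%. There, 23 passed in the p300 contrast, 0 higher and Rimbp2 alone lower, against 4.38% and 4.03%.

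Along the oligodendrocyte lineage the genes were mixed. In committed oligodendrocyte precursor-like nuclei, 25 passed in the CBP contrast, with Syt1 and the vesicle protein Sv2a (12.2 and 25.6 CPM, 1.07) higher and Rab3c (-1.12), Cadps2 (-0.997), Syngr1 (-0.96) and Syn2 (-0.83) lower, against 9.55% and 6.61%. In the p300 contrast 24 passed, with Sv2a (27.0 CPM, 1.14), Snap25 (0.83) and Stx1a (0.64) higher and Rab3c (-0.94) lower, against 5.30% and 5.51%. In oligodendrocyte-like nuclei, 21 passed in the CBP contrast, with Syt1, Unc13b, Erc2 (0.74) and Nsf (0.64) higher and Syn2 (-0.90) and Syngr1 (-0.86) lower, against 11.4% and 5.91%. Unc13b, a priming factor also found outside the nervous system, was at 41.5, 117 and 92.7 CPM there, with log2 ratios of 1.49 (0.99 to 2.04) and 1.16 (0.60 to 1.75). In the p300 contrast 18 passed, with Unc13b, Rims1 (0.95) and Erc2 (0.68) higher and Napb (-0.69) lower, against 9.25% and 4.39%.

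**Figure D5:**
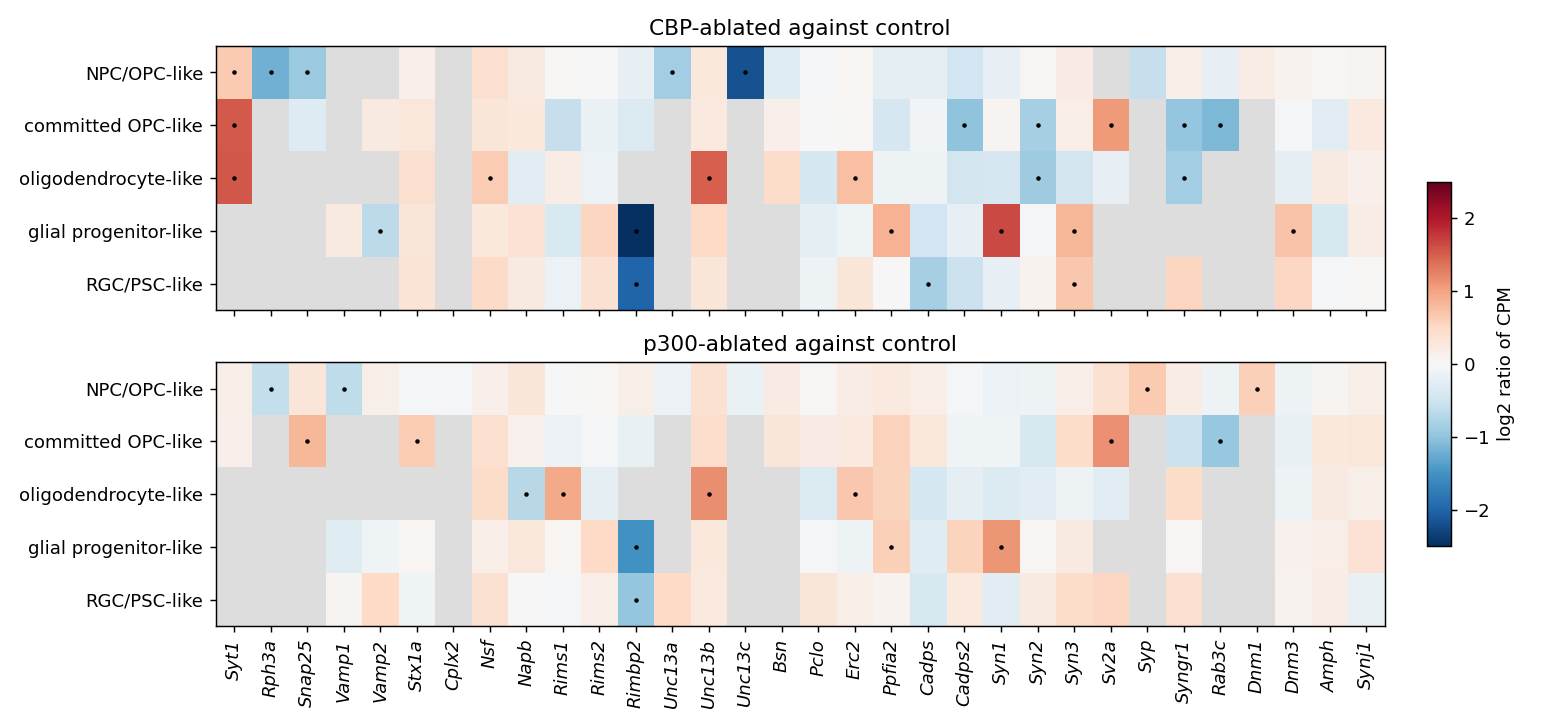
Log2 ratio of CPM in ablated against control nuclei for each presynaptic gene (columns) in 5 classes outside the gate (rows), in 1 panel per ablated library. Blue is lower and red higher, dots mark ratios past 1.5-fold, and cells under 50 UMIs are grey. In the CBP-ablated panel the Syt1 cells are red in the 3 classes with enough UMIs, the Cadps cells lie below 0 in all 5 classes, and Rimbp2 in glial progenitor-like nuclei has the lowest value, -2.86, which lies past the end of the colour scale.

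The promoters of the set were read for 2 motifs linked to the study's proteins and to neuronal genes. CBP was named for its binding to CREB, which recognises the cyclic AMP response element TGACGTCA, and the repressor REST binds a long element, the left part of which is commonly written TTCAGCACC. Windows of 300 bases, from 250 before to 50 after each RefSeq start (build GRCm38.p6), were available for 34 of the 38 genes and were searched on both strands. TGACGTCA occurred in 1 of 34 genes (2.94%), Syn1, against 2.03% of 27025 genes. Its core TGACG, which the full site contains, occurred in 7 of 34 (20.6%) against 23.0%. TTCAGCACC occurred in 2 of 34 (5.88%), Unc13a and Syn1, against 0.433%. The windows of these genes had a median GC content of 61.2% and 17 CpG sites, against 52.7% and 7 for all genes. These matches describe the letters and not binding.

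Syn1 is shown because it holds both motifs. It also had the largest ratio above 1.5-fold in glial progenitor-like nuclei, where it reached the minimum mostly through its CBP-ablated UMIs. Rims1 and Cadps2 are shown as genes lower past 1.5-fold in gated CBP-ablated nuclei and in the neuron-like part of that gate. Amph was also lower past 1.5-fold in both and is not shown. Each line gives the 250 bases before the start, 5′ to 3′ on the gene's strand, which is minus for all 3. Capitals mark TTCAGCACC, starting 232 bases before the Syn1 start, and TGACGTCA, starting 159 bases before it. The windows of Rims1 and Cadps2 held neither motif. Their places are chrX:20920919-20921168 for Syn1, chr1:22806159-22806408 for Rims1 and chr6:23839422-23839671 for Cadps2.
Syn1: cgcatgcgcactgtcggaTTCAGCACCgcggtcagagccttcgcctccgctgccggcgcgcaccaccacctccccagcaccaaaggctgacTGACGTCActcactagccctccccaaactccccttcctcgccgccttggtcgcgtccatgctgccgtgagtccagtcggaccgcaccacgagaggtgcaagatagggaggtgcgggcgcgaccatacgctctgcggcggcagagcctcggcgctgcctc
Rims1: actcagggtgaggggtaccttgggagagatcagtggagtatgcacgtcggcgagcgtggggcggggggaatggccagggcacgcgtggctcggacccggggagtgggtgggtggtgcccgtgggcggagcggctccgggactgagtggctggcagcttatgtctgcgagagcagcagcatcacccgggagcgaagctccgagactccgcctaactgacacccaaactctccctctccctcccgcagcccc
Cadps2: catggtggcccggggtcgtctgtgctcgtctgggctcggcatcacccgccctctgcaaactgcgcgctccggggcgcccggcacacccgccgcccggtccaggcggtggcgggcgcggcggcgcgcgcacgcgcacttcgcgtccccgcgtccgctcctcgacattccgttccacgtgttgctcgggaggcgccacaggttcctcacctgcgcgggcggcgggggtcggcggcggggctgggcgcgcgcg

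In the files' annotation, Rims1 lies on chromosome 1 from 22286251 to 22805994, Cadps2 on chromosome 6 from 23262773 to 23839421, Syt1 on chromosome 10 from 108497650 to 109010982 and Rimbp2 on chromosome 5 from 128757791 to 128953486, all on the minus strand of GRCm38. Reads over whole genes were counted, introns included. Gm5136 lies inside Syt1 and Rnf133 and Rnf148 inside Cadps2 on the same strand, so reads there could be split between them. Split by length, in the gated CBP contrast the presynaptic genes of at least 200 kb had a median of 0.25 (13 genes) and the shorter ones 0.37 (7 genes), against 0.04 and 0.08 for all genes.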

How the data were processed

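Nuclei were profiled by droplet single-nucleus RNA sequencing, 1 library per condition. The authors deposited raw UMI counts per gene and nucleus as filtered matrices, and per the labels the tools were Cell Ranger 3.1, FastQC 0.11.9 and Seurat 2.3.4 on GRCm38 (mm10). Per the study's methods, a customized reference counted reads over exons and introns. The matrices held 0 columns of other samples, and the smallest nucleus had 500 UMIs.

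Counts were summed over gated nuclei (at least 3 UMIs of 4 genes) and over each class of nuclei, and divided by the total UMIs of those nuclei to give CPM. Log2 ratios were formed for genes with at least 50 UMIs in the 2 sets together, with conditional binomial 95% intervals. A difference past 1.5-fold is a rule of size in place of a test. A sum of 0 was given a floor of 3 UMIs. Classes came from Seurat 5.3.0 in R 4.3.3, rebuilt after the study's methods: log normalization to 10000, 1000 most dispersed genes per library, 20 components and Louvain clustering at 0.6. A class was called X-like from fixed markers, and class values leave gated nuclei out. Rebuilt names may differ from the study's. Doublets were called with Scrublet in scanpy 1.11.5 and kept. Other steps used Python 3.11.15, scipy 1.17.1 and pandas 2.3.3, and the ratio step was tested on simulated data.

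The genes given in every library were those past 1.5-fold in gated nuclei, the 5 of highest control CPM, the vesicular transporters, at most 5 per contrast past 1.5-fold in other classes, and the 3 largest and smallest of the other pathway genes. Some of the other pathway genes that this rule names are not reported here. Others named were chosen after their values were seen. The members, lists and rules were chosen with earlier results of these data known. Alternatives changed the gate, doublets, free RNA, minimum, fold and clustering.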

Additional observations from a re-analysis of the deposited data

Results flagged for a closer look

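Dnm3 differed in direction between sets of nuclei in the CBP-ablated library: its log2 ratio to control was -0.70 in gated nuclei but 0.71 in glial progenitor-like nuclei and 1.46 in microglia-like nuclei. The microglia-like value rests on 46 Dnm3 UMIs in control and 46 with CBP ablation. Rims1 in the CBP-ablated library was at -0.81 in gated nuclei and 0.76 in neuron-like nuclei below the gate, on 19 control and 106 CBP-ablated UMIs. Cadps2 in the p300-ablated library was at -0.90 in gated nuclei and 0.92 in the unnamed cluster led by Ogn and Cep19, on 19 control and 51 p300-ablated UMIs. With 1 library per condition, none of these differences between sets of nuclei was tested.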

How the results depend on the processing

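With 1 library per condition no value can be checked between cultures, and depth limits genes such as Vamp2, Stx1a and Cplx1. No paired analysis was possible because each condition had 1 library, so the groups shared only 1 replicate number. For the same reason no library was left out.

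The share of gated nuclei, in the order control, CBP and p300 ablation, was 4.69%, 7.03% and 5.27% with at least 2 UMIs, 0.860%, 2.55% and 1.08% with at least 5, 1.27%, 3.15% and 1.46% without Dcx, 0.798%, 2.05% and 0.753% after thinning, and 1.54%, 3.78% and 1.40% for its neuron-like part. The whole neuron-like cluster gave 5.67% in CBP-ablated and 1.87% in p300-ablated cultures. The control median of gated against other nuclei was 1.15 in the neuron-like part and 1.16 over that cluster.

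For CBP, the count higher was 1 with at least 5 UMIs and after thinning, and 0 without Dcx, without doublets, over the whole neuron-like cluster (an alternative chosen after seeing the data) and at 2-fold. The count lower was 2 over that cluster, 7 with a minimum of 20 UMIs and 0 at 2-fold. The median was 0.010 after thinning. For p300, the median was 0.273 with at least 5 UMIs and -0.031 after thinning. The count higher was 1 with at least 5 UMIs, after thinning and with a minimum of 20 UMIs, and 2 without Dcx, in the neuron-like part and over the whole cluster. The count lower was 2 without Dcx, 3 with a minimum of 20 UMIs and 0 after thinning and at 2-fold.

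Of the ratios of single genes, 483 kept their direction within counting error, 47 moved further and 3 turned, all in CBP-ablated gated nuclei: Bsn to -0.040 with at least 5 UMIs, and Syt1 to -0.011 and Amph to 0.081 after thinning. Rims1 and Cadps2 stayed below 0 in CBP-ablated gated nuclei under each alternative, at -1.28 to -0.30 and -1.32 to -0.38, although in neuron-like nuclei below the gate Rims1 was at 0.76. The cause of these shifts was not tested. At a resolution of 1.2 the Ogn/Cep19 class gave no value.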
